A study of Mus musculus with 16 samples.

Results

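Messenger RNA of the CD45-positive (immune) and the CD45-negative (stromal) cells of unstretched mouse skin was compared across all genes with enough reads. The comparison used 8 of the 16 libraries of the study, namely those labelled as control: 4 titled immune (numbers 3 to 6) and 4 titled stromal (numbers 1 to 4). The other 8 libraries came from skin collected 6 h after it had been stretched by suction (hypobaric pressure), and are used here only to ask whether the same genes separated the fractions there. Control skin was unstretched tissue of the same body area, and both fractions were sorted on a FACSAria instrument. The labels give no genotype, strain, sex or age, and do not say whether the libraries came from separate animals, so every p-value measures the spread between these libraries, which may be technical.

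CD45, the product of *Ptprc*, is a transmembrane phosphatase on the surface of nearly all nucleated blood-derived cells. It sets the threshold of the Src-family kinases that start signalling from antigen and Fc receptors. In skin the CD45-positive cells are macrophages, dendritic and Langerhans cells, mast cells, T cells and other lymphocytes, with neutrophils and monocytes that arrive from blood. The CD45-negative cells are mainly the fibroblasts that build the collagen-rich dermis, with the cells of vessels, epidermis, hair follicles, nerves and muscle. Each fraction is therefore a mixture, and in bulk RNA fewer cells of a type and less RNA per cell cannot be told apart.

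Total counts were 2645421 to 6662268 in the immune libraries and 13563586 to 20467010 in the stromal libraries, so depth and fraction cannot be told apart and the immune values carry the larger counting error. Transcripts of the mitochondrial genome took 0.901% to 2.98% of the counts of the immune libraries and 0.206% to 0.532% of those of the stromal libraries. Immune control 4, the shallowest library, stood apart: 35303 genes had a read in it, against 20429 to 24109 in the other 7 libraries. The 1972 genes for smell and pheromone receptors (olfactory and vomeronasal), which belong to sensory neurons of the nose, took 0.621% of its counts and at most 0.00699% elsewhere. For *Ttn*, *Piezo2*, *Scn7a*, *Thbs4* and *Pdgfd* it was also the highest immune library by far, and whether genomic DNA gave reads in it was not tested. Stromal control 4 lay far above the other 3 stromal libraries for several fibroblast genes described below, such as *Fgf7*, *Il33* and *Mmp3*. Without immune control 4 the counts of called genes given next would be 4244 and 4322, and without stromal control 4 they would be 3687 and 3015. Of the 269 called genes named below, 111 moved by over 1.5 times in fold without 1 library or another, 51 of them without stromal control 4, and 108 of the 111 were still called in each such case. Calls that were lost without 1 library, and such shifts where a fitted log2 fold change is printed, are given with the gene.

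Of 15142 genes tested with edgeR's quasi-likelihood test, 4027 (26.6%) were higher in the immune and 3457 (22.8%) in the stromal libraries at a Benjamini-Hochberg adjusted p under 0.05, or 49.4% in all. The 4 libraries of 1 fraction lay above all 4 of the other for 24.7% of the genes in favour of the immune and 23.7% in favour of the stromal fraction. These shares are the background for every count below. The counts were alike in the 2 directions but the sizes were not. The median log2 fold change (immune over stromal) was 2.27 among genes higher in the immune fraction, -1.68 among those higher in the stromal fraction and 0.08 over all genes tested. Among the called genes with reads in both fractions, 465 were over 100-fold higher in the immune fraction and 2 over 100-fold higher in the stromal fraction. No read was found in the stromal libraries for 88 genes called higher in the immune fraction, while 2 genes called higher in the stromal fraction had no read in the immune libraries. These sizes have limits that differ by fraction. A total of 3 counts was 0.155 CPM in the shallower immune group and 0.0463 CPM in the stromal group. Fibroblast genes also had reads in the immune libraries (below), and the part of either in the unequal sizes was not tested.

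**Figure D1:**
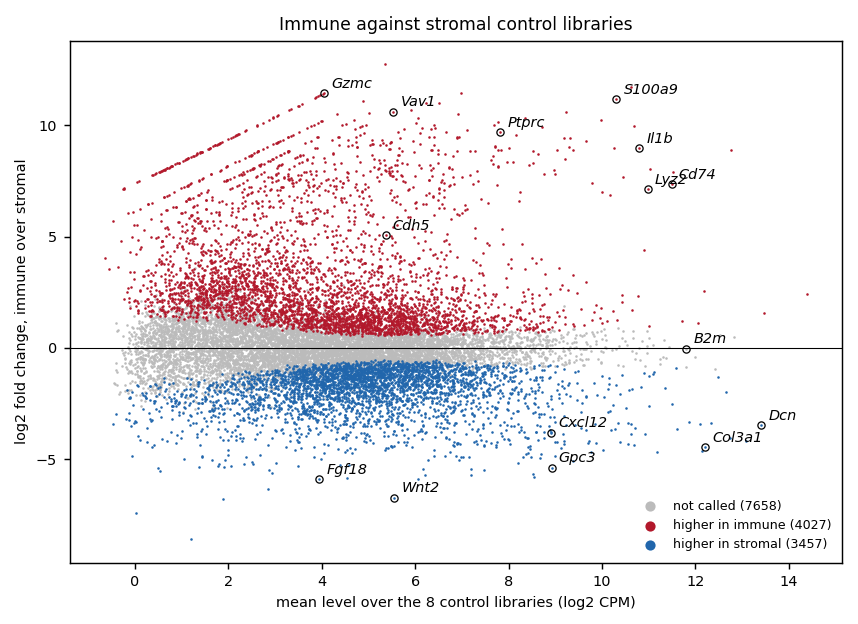
Log2 fold change (immune over stromal control libraries) of the 15142 genes tested against their mean level (log2 CPM, read counts scaled to a common library total). Coloured points passed an adjusted p of 0.05, and labelled points are genes described in the text. The immune-higher genes (upper points) reach 10 and more on the log2 scale, whereas the stromal-higher genes (lower points) lie closer to 0.

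*Ptprc* itself (ENSMUSG00000026395, chromosome 1, 138062861 to 138175708 on GRCm38) checks the sort. Its level was 330.2, 258, 668 and 553 CPM in immune controls 3 to 6 and 0.620, 0.160, 0.0652 and 1.31 CPM in stromal controls 1 to 4. The groups were far apart in every library, with a log2 fold change of 9.68 ± 0.79 (SE; adjusted p = 7.04e-06), or 10.65 without stromal control 4. Single-gene levels here and below are CPM scaled by TMM factors, listed in the order of the library numbers, and a mean is given ± SD over 4 libraries.

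All 28 tested genes of a list for blood-cell signalling and cytoskeleton were higher in the immune fraction (28 of 28 without overlap; median log2 fold change 8.09). They included the adaptors *Tyrobp* (1323 ± 725 against 2.79 ± 2.18 CPM) and *Fcer1g* (2446 ± 958 against 4.85 ± 1.37 CPM), which carry the signals of activating receptors, and *Vav1*, an exchange factor that acts below antigen receptors. *Vav1* had 83.9, 66.1, 131 and 90.2 CPM in the immune libraries and 0.155, 0, 0 and 0.0568 CPM in the stromal libraries, where only 3 reads were counted in all. The immune mean was 2002 (95% counting interval 685 to 9705) times the stromal level. The glycoproteins *Cd52* (1171 ± 490.5 against 1.65 ± 0.509 CPM) and *Cd53* (546 ± 274 against 1.64 ± 1.74 CPM) and the lysosomal *Laptm5* (688 ± 281 against 2.26 ± 1.26 CPM) were as clearly separated. Summed over the 28 genes, the stromal libraries held 0.940% of the mean level of the immune libraries. The smallest differences in the list were those of *Arhgdib* (log2 fold change 2.27 ± 0.34, adjusted p = 3.32e-04) and *Syk* (4.03 ± 0.61, or 3.40 without immune control 5 and 4.78 without stromal control 4, adjusted p = 3.20e-04).

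The reverse check was less sharp. Of 18 fibroblast genes, 0 were higher in the immune and 17 in the stromal fraction (median log2 fold change -3.56), but the immune libraries were not free of them. Their summed level was 2223 to 9187 CPM in the immune and 61228 to 80463 CPM in the stromal libraries, so the immune libraries held 3.25% to 13.4% of the stromal mean. *Dcn*, which encodes the collagen-binding proteoglycan decorin and was the most abundant of them, had 4305, 1546, 578 and 694 CPM in the immune and 22799, 15215, 16811 and 24817 CPM in the stromal libraries. *Col1a1*, a chain of type I collagen, had 645, 440.0, 225 and 524 CPM and 4561, 9557, 6565 and 2296 CPM. The immune libraries lay lower throughout and immune control 3 was the highest of them for both genes. Without it the log2 fold change of *Dcn* moved from -3.48 to -4.49. For comparison, the summed haematopoietic genes of the stromal libraries reached 111 CPM at most. Any gene of the immune libraries that fibroblasts express strongly is read against this fibroblast level, whose part in the results was not tested.

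The genes with the largest differences in favour of the immune fraction belonged to several leukocyte types. *Gzmc*, a granzyme of cytotoxic lymphocytes (chromosome 14, 56231441 to 56234656), had 45.5, 17.1, 2.97 and 67.1 CPM in the immune libraries and no read in the stromal libraries. *Cd207*, the langerin gene of Langerhans cells (chromosome 6, 83671215 to 83677857), had 115, 7.86, 2.97 and 4.97 CPM and likewise no stromal read. Both varied widely among the immune libraries, and the fitted log2 fold change of *Cd207* moved from 11.42 to 8.83 without immune control 3. Against a floor of 3 counts over the stromal group they were at least 716-fold and at least 707-fold higher. The same bound was 651 for *Tarm1* and 625 for *Lilra6*, receptors of myeloid cells, 515 for *Mmp12*, the macrophage elastase, 483 for *Ctla4*, an inhibitory receptor of T cells, 439 for *Cd180* and 427 for *Cd3e* of the T cell receptor complex. Without 1 immune library the bound was as low as 114 for *Cd207* (without immune control 3), 471 for *Gzmc* (without immune control 6) and 330.1 for *Mmp12* (without immune control 3), and the bounds of the other genes named fell by less than 1.5 times. *Lilra6* belongs to a family of near-identical genes, so its share of the reads is uncertain. Other leading genes had stromal reads. *S100a9* (log2 fold change 11.17 ± 1.58, or 10.43 without immune control 5 and 13.91 without stromal control 4) had 74 of them in all and *Slfn4* (10.61 ± 1.11, or 9.85 without immune control 5 and 12.26 without stromal control 4) had 51. *Retnlg* (11.01 ± 1.27, or 9.72 without immune control 5 and 13.74 without stromal control 4) had 5 and *Mir142hg* (10.67 ± 0.74, or 11.74 without stromal control 4), the host transcript of a leukocyte microRNA, had 4. *Fcgr4*, an activating Fc receptor, had 1 stromal read, and its immune mean was 3824 (95% counting interval 686 to 151026) times the stromal level. The chemokine *Xcl1* had 2 stromal reads, and its ratio was 2092 (95% counting interval 579 to 17271).

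In the other direction a secreted ligand led. *Wnt2*, a secreted Wnt ligand (chromosome 6, 17988940 to 18030585), had 75.6, 33.9, 48.7 and 212 CPM in the stromal and 0, 1.90, 0.809 and 0.877 CPM in the immune libraries. The groups did not overlap, with a log2 fold change of -6.73 ± 0.82 (adjusted p = 7.98e-05), or -7.36 without immune control 4 and -5.93 without stromal control 4. *Fgf18*, a growth factor gene (chromosome 11, 33117430 to 33147400), had 20.8, 15.3, 22.3 and 63.1 CPM and 0, 0.542, 0 and 1.17 CPM (-5.91 ± 0.81, or -7.47 without immune control 6 and -5.31 without stromal control 4, adjusted p = 1.82e-04). *Cnmd*, the chondromodulin gene (chromosome 14, 79637690 to 79662170), was lower in abundance at 14.3 ± 18.3 CPM in the stromal fraction, with 3 immune reads in all. Its stromal mean was 92.0 (95% counting interval 31.5 to 446) times the immune level. The others were *Osr1*, a transcription factor of embryonic connective tissue (-5.89 ± 0.56, or -5.25 without stromal control 4), *Tubb4a* (-5.84 ± 0.38), *Spon2* (-5.79 ± 0.50, or -6.40 without immune control 6), *Tmeff2* (-5.73 ± 0.37), the Wnt modulator *Sfrp2* (-5.71 ± 0.79, or -4.51 without stromal control 4), *Cd248*, a surface protein of mesenchymal cells (-5.64 ± 0.47), *Agtr2* (-5.63 ± 0.81, or -7.37 without immune control 6), *Abhd14b* (-5.50 ± 0.60, or -6.37 without immune control 6), *Mxra8* (-5.49 ± 0.48), *Tmem119* (-5.46 ± 0.39), *Islr* (-5.45 ± 0.49, or -4.85 without stromal control 4) and the glypican *Gpc3* (-5.38 ± 0.47). *Gpc3* (352 CPM per kb of transcript), *Cd248* (276) and *Spon2* (248) were the most abundant per length of the 15 in the stromal fraction.

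Promoters of the genes that led each direction are shown next, since 3 families of transcription factors with known roles in these cells bind short DNA motifs: PU.1, which drives myeloid genes, TEAD, the partner of YAP, and AP-1. Each window is the RefSeq promoter on GRCm38.p6, 300 bases from 250 before to 50 after the gene's start, written 5′ to 3′ on the strand of the gene. Where RefSeq gives several starts, the first in its table was taken. The letters searched, on both strands, were GAGGAAGT for PU.1, GGAATG for TEAD and TGANTCA for AP-1, and capitals mark a match. The 3 leading immune-higher genes with a promoter in the table were:

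Gzmc (chr14:56234608-56234907, minus strand): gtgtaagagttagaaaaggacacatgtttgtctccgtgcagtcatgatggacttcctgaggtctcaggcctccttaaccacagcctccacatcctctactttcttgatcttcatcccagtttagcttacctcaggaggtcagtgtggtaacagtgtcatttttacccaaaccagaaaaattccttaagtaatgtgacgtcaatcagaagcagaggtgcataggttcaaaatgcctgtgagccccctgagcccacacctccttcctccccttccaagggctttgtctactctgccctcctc

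Cd207 (chr6:83677808-83678107, minus strand): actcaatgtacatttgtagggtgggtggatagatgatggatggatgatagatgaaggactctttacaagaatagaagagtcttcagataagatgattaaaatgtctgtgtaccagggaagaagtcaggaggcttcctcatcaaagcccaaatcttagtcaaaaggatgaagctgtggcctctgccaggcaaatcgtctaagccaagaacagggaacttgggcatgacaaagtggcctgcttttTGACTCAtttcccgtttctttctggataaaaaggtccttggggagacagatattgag

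Tarm1 (chr7:3502575-3502874, minus strand): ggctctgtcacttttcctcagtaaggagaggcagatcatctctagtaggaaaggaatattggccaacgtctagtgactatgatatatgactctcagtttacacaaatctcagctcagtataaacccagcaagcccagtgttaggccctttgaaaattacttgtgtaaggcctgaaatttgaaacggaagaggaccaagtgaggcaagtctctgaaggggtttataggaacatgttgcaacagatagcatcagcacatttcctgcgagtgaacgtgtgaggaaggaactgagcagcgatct

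The 3 leading stromal-higher genes were:

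Wnt2 (chr6:18030396-18030695, minus strand): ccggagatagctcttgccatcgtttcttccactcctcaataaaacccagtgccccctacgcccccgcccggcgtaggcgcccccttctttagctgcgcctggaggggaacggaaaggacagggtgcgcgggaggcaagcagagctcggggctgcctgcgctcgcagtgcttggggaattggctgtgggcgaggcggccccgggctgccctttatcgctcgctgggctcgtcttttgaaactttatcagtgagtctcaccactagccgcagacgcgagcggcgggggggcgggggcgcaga

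Cnmd (chr14:79662134-79662433, minus strand): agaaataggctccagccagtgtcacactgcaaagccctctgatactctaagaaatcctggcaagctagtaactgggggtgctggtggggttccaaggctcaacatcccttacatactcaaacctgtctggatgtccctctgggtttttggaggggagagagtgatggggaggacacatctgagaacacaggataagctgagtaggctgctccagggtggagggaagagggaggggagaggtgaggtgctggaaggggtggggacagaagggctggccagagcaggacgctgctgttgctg

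Fgf18 (chr11:33147351-33147650, minus strand): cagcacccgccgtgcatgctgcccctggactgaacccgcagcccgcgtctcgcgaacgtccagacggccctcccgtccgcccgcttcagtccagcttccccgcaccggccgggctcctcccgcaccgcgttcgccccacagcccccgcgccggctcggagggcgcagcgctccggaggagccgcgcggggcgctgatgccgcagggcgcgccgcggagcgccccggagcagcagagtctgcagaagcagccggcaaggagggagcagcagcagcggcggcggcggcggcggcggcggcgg

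Among these 6 windows only that of *Cd207* held a match, for AP-1. PU.1 matches were found in 4 others of the 15 leading immune-higher genes. No further windows of stromal-higher genes, and none for TEAD or AP-1, were picked in this way. The windows therefore do not show how often the letters occur in either fraction, which is given after them over all genes. These 4 are printed because they hold the letters:

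Vav1 (chr17:57278850-57279149, plus strand): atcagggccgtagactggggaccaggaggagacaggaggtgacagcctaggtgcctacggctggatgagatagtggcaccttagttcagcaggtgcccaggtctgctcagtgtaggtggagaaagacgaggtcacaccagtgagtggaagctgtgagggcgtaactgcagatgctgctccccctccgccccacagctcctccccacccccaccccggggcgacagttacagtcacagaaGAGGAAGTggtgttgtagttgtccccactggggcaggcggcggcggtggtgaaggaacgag

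Fcgr4 (chr1:171018676-171018975, plus strand): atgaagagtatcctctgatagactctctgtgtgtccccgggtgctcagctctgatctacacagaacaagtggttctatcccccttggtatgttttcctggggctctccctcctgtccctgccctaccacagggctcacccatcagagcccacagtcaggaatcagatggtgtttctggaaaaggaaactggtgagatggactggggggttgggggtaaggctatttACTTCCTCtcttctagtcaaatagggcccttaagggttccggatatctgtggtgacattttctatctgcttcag

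Mmp12 (chr9:7344147-7344446, plus strand): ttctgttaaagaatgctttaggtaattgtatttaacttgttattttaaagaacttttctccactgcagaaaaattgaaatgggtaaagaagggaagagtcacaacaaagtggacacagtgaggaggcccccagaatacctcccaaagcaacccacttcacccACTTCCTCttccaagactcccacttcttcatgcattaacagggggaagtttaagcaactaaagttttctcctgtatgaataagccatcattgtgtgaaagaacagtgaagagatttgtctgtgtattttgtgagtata

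Lilra6 (chr7:3915452-3915751, minus strand): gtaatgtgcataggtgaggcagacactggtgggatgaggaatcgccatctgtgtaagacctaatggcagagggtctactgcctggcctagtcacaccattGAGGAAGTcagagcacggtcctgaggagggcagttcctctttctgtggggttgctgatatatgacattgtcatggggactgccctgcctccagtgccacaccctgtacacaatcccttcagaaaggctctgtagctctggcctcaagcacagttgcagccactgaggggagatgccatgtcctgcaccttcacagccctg

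Over all genes, the PU.1 letters stood in 5.65% of the promoters of immune-higher genes (147 of 2604), in 2.21% of those of stromal-higher genes (59 of 2673) and in 3.35% of those of all genes tested (360 of 10732). The share was 3.28% over the 27025 promoters of the table. The TEAD letters were found in 11.2%, 13.02% and 11.9% of the same 3 groups, against 14.6% of the table, and the AP-1 letters in 6.34%, 5.13% and 5.37%, against 7.93%. These shares are a description of letters within the windows and were not tested.

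**Figure D2:**
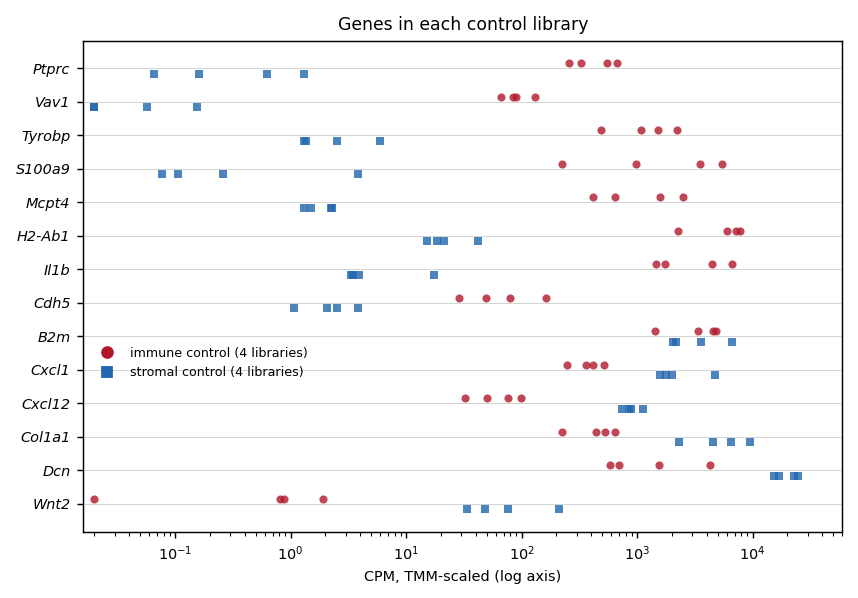
CPM of 14 genes in each of the 8 control libraries on a log axis; each point is 1 library, circles are immune and squares stromal, and values of 0 are drawn at the left edge. *Ptprc*, *Vav1*, *Tyrobp* and *S100a9* are far apart between the fractions, and *Dcn*, *Col1a1* and *Wnt2* are separated the other way, with *Dcn* and *Col1a1* still present in the immune libraries.

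Markers of every leukocyte type searched for were found in the immune fraction. The list counts, each against the background of 26.6%, were 15 of 15 tested macrophage genes higher in the immune fraction, 17 of 17 for T cells, 12 of 12 for natural killer and cytotoxic lymphocytes, 12 of 12 for mast cells, 13 of 14 for dendritic and Langerhans cells, 8 of 10 for neutrophils, 6 of 8 for monocytes, 6 of 6 for B cells and 4 of 4 for basophils and eosinophils. Too few reads to be tested were found for 3 of 9 B cell genes and 3 of 7 basophil and eosinophil genes. The same held for 3 of 20 T cell, 3 of 13 neutrophil and 1 of 16 macrophage genes. Summed CPM over a list compares libraries, not cell numbers. By that measure macrophage genes had 3905 to 16664 CPM, mast cell genes 2203 to 8413, neutrophil genes 672 to 12578, NK and cytotoxic genes 358 to 2325, T cell genes 309.7 to 842 and B cell genes 53.4 to 515 in the immune libraries. The 4 immune libraries thus differed in these sums.

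Macrophage genes were led by *Lyz2*, the lysozyme gene of myeloid cells (4009 ± 1871 against 28.4 ± 18.9 CPM), although reads of *Lyz2* and its copy *Lyz1* can be exchanged. *Cd14*, a co-receptor for bacterial lipopolysaccharide, had 2159, 969, 3572 and 1389.8 CPM in the immune and 14.4, 10.5, 10.3 and 26.8 CPM in the stromal libraries. *Mrc1*, the mannose receptor of resident dermal macrophages, had 299, 222, 903 and 559 CPM and 1.63, 1.07, 1.5001 and 1.76 CPM. The groups did not overlap for either gene. *Csf1r*, the receptor on which macrophages depend, was separated less (log2 fold change 2.89 ± 0.49, adjusted p = 6.97e-04), with 5.28 to 20.4 CPM in the stromal libraries. Of the monocyte genes, the chemokine receptor *Ccr2* (414 ± 228 against 0.375 ± 0.340 CPM) was higher in the immune fraction, whereas *Ace* (8.78 ± 2.40 against 55.6 ± 27.4 CPM) and *Plac8* (402 ± 106 against 766 ± 226 CPM) were higher in the stromal fraction (adjusted p = 2.61e-04 and 0.0316). The call of *Plac8* was lost without immune control 5 (adjusted p = 0.0604), stromal control 2 (0.0714) or stromal control 4 (0.0794). Endothelial cells are known to express *Ace* too, but which cells gave its reads here was not tested.

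Mast cell genes were abundant in all 4 immune libraries. The chymase gene *Mcpt4* had 1566, 645, 412 and 2498 CPM in the immune and 2.25, 1.496, 1.30 and 2.27 CPM in the stromal libraries, and *Hdc*, which encodes the enzyme that makes histamine, had 910.3, 591, 1516 and 1189 CPM and 1.94, 1.92, 1.04 and 3.75 CPM. Immune control 6 was the highest for *Mcpt4* and immune control 5 for *Hdc*. *Cma1* (8.72 ± 0.99 on the log2 scale, or 9.65 without stromal control 4), the carboxypeptidase *Cpa3* (8.26 ± 0.88), the transcription factor *Gata2* (6.57 ± 0.46) and the connective tissue mast cell receptor *Mrgprb1* (9.11 ± 0.85, or 10.05 without stromal control 4) agreed in direction. Reads of the tryptases *Tpsb2* (731 ± 862 CPM in the immune libraries) and *Tpsab1* (69.1 ± 43.0 CPM) may be shared between them. *Kit*, the receptor for stem cell factor, was at 60.2, 46.6, 26.7 and 96.1 CPM in the immune and 2.17, 2.89, 4.76 and 0 CPM in the stromal libraries, where melanocytes are a known source.

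Neutrophil genes varied widely. *S100a9*, a subunit of calprotectin, had 3510.2, 975.4, 5449 and 222 CPM in the immune and 0.0774, 0.107, 0.261 and 3.80 CPM in the stromal libraries. *S100a8*, its partner, had 3071, 602, 4191 and 146 CPM and 1.55, 0.428, 0.848 and 3.75 CPM. Immune control 6 was the lowest and immune control 5 the highest for both, and even immune control 6 lay above every stromal library. Stromal control 4 was the highest of the stromal libraries for both. The receptors *Csf3r* (50.7 to 441 CPM in the immune libraries, adjusted p = 5.01e-05) and *Cxcr2* (6.73 to 146 CPM, adjusted p = 1.01e-04) and the surface lectin *Clec4d* (98.7 to 852 CPM, adjusted p = 3.63e-05) spread in the same way. The granule genes *Ngp* and *Ltf* of neutrophil precursors and the surface marker *Ly6g* had too few reads to be tested. *Il1r2*, the decoy receptor for interleukin 1, was abundant in both fractions and not called (509.8 ± 391 against 738 ± 116 CPM, adjusted p = 0.444).

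Lymphocyte genes were lower in abundance. *Cd3g*, a chain of the T cell receptor complex, had 114, 18.7, 8.09 and 66.0 CPM in the immune libraries and 2 reads in the whole stromal group. *Trdc*, the constant region of the delta chain used by dendritic epidermal and dermal gamma-delta T cells, had 42.5, 5.69, 4.31 and 19.7 CPM (7.65 ± 1.01 on the log2 scale, or 6.74 without immune control 3 and 8.35 without stromal control 3). *Gzma* (128, 101, 169.8 and 562 CPM) and *Nkg7* (169, 77.8, 115 and 588 CPM), of the cytotoxic granule, were highest in immune control 6, as were the NK receptors *Klrd1* (87.7, 32.5, 72.0 and 125 CPM) and *Ncr1* (6.83, 9.21, 12.1 and 52.6 CPM). *Foxp3* and *Cd8a* were too low to be tested. The immunoglobulin genes *Igkc* (8.97, 2.71, 55.0 and 203 CPM) and *Jchain* (2.78, 1.35, 24.8 and 98.9 CPM) were higher in immune controls 5 and 6 than in immune controls 3 and 4.

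**Figure D3:**
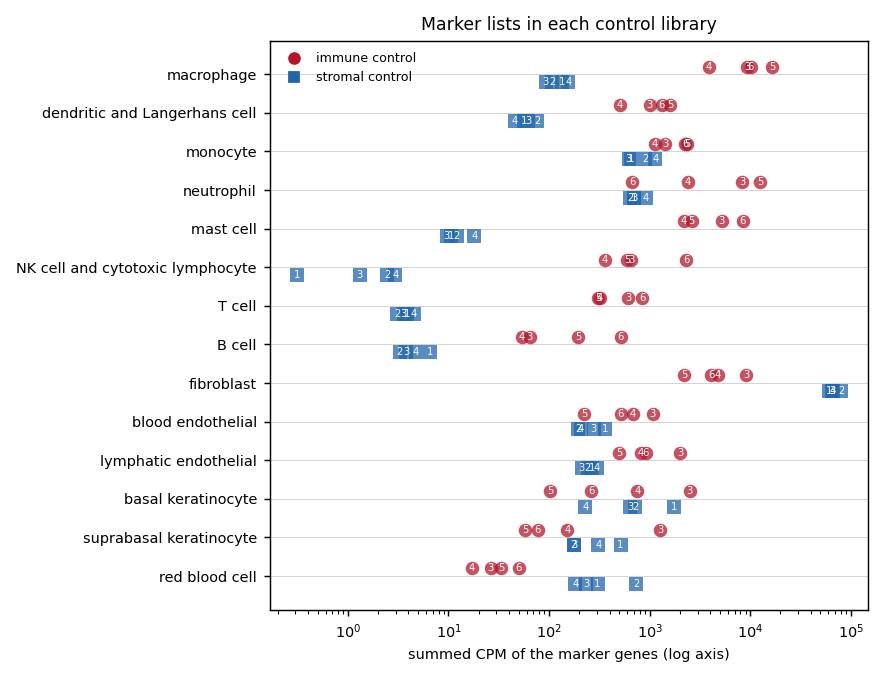
Summed CPM of 14 marker lists in each control library on a log axis; circles are the 4 immune and squares the 4 stromal libraries, with the library number inside. All leukocyte lists but the monocyte and neutrophil lists lie higher in every immune library, the fibroblast and red blood cell lists lie higher in every stromal library, the lymphatic endothelial list lies higher in every immune library, and the keratinocyte lists overlap.

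Genes of cells that do not carry CD45 did not all go to the stromal fraction. Fibroblast genes did (above), and so did the 5 tested red blood cell genes, 5 of 5 being higher there. *Hbb-bs*, a beta-globin gene, had 151, 361, 113 and 88.8 CPM in the stromal and 12.2, 6.50, 15.6 and 24.1 CPM in the immune libraries, and the alpha-globin pair *Hba-a1* and *Hba-a2*, whose reads cannot be separated with certainty, had -3.46 ± 0.54 and -3.44 ± 0.48 on the log2 scale, the first -2.87 without stromal control 2. Of 12 skeletal muscle genes, 6 were stromal-higher and 1 was immune-higher. These included the actin *Acta1* (90.0 ± 62.7 against 591 ± 243 CPM), the creatine kinase *Ckm* (10.2 ± 5.75 against 48.9 ± 19.4 CPM) and, in the other direction, titin, *Ttn* (9.18, 109, 5.66 and 8.92 CPM in the immune and 7.98, 4.86, 5.61 and 6.64 CPM in the stromal libraries, adjusted p = 0.0360). The value of *Ttn* rested on immune control 4, without which the log2 fold change was 0.28 (adjusted p = 0.503), and its adjusted p was 0.0607 to 0.0857 without any 1 of the stromal libraries. Melanocyte genes (0 of 6 called either way), hair follicle genes (0 of 5) and Schwann cell genes (1 of 8 higher in the stromal fraction, the sodium channel *Scn7a*, whose adjusted p was 0.0519 without stromal control 4) mostly overlapped.

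Endothelial genes stood higher in the CD45-positive fraction. Of 9 tested lymphatic endothelial genes, 8 were higher in the immune and 0 in the stromal libraries (median log2 fold change 3.92), and of 20 blood endothelial genes 11 were higher in the immune and 3 in the stromal libraries (median 2.56). *Cdh5*, the cadherin of endothelial junctions, had 163, 79.7, 28.8 and 48.8 CPM in the immune and 3.87, 2.08, 2.54 and 1.08 CPM in the stromal libraries. *Prox1*, the transcription factor that defines lymphatic endothelium, had 39.1, 34.7, 14.8 and 24.6 CPM and 3.02, 3.15, 2.35 and 1.76 CPM, and *Flt4*, the receptor for VEGF-C, had 53.6, 28.2, 12.7 and 17.3 CPM and 1.01, 1.34, 0.848 and 1.08 CPM. In each of these the 4 immune libraries lay above the 4 stromal ones and immune control 3 was the highest immune library. Without it the log2 fold change of *Cdh5* was 4.38 in place of 5.07. *Cldn5* (3.85 ± 0.58, or 3.08 without immune control 3), *Reln* (4.30 ± 0.46), *Mmrn1* (3.92 ± 0.44), *Nts* (3.94 ± 0.49) and *Lyve1* (4.33 ± 0.52, or 3.57 without immune control 3), which dermal macrophages also express, went the same way, while *Tek* (-2.22 ± 0.40), *Ackr1* (-1.78 ± 0.42) and *Eng* (-1.24 ± 0.38) were higher in the stromal libraries. The adjusted p of *Eng* was 0.0552 without stromal control 2.

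Fibroblast RNA was lower in the same immune libraries, so the ratio of the lists differed by fraction. The blood endothelial sum was 11.7%, 14.2%, 10.01% and 12.6% of the fibroblast sum in immune controls 3 to 6, and 0.585%, 0.242%, 0.429% and 0.310% in stromal controls 1 to 4. For lymphatic endothelium the values were 22.01%, 17.3%, 22.4% and 22.3% in the immune and 0.441%, 0.301%, 0.324% and 0.454% in the stromal libraries. These ratios did not overlap between fractions, but the lower fibroblast sum of the immune libraries enters every such ratio. Basal keratinocyte ratios (4.62% to 27.2% against 0.347% to 2.88%) did not overlap either. Nor did those of pericyte and smooth muscle genes (2.26% to 4.79% in the immune against 0.256% to 0.456% in the stromal libraries). The blood endothelial sums themselves overlapped, at 222 to 1072 CPM in the immune and 195 to 358 CPM in the stromal libraries. The number of endothelial cells in either gate was not measured.

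Keratinocyte genes overlapped between the fractions. Basal keratinocyte genes summed to 2496, 756, 103 and 262 CPM in immune controls 3 to 6 and to 1763, 718, 639 and 230.1 CPM in stromal controls 1 to 4. Of 14 tested, 2 were higher in the immune and 1 in the stromal libraries. The first count was 1 without immune control 3, 4 or 6 or stromal control 2 or 3, and the second was 0 without stromal control 4. *Krt14*, the keratin of the basal layer, had 1158, 229, 10.2 and 57.8 CPM and 1076, 371, 355 and 47.7 CPM, with overlapping groups and an adjusted p of 0.817. With the title number as a block it was called immune-higher (log2 fold change 1.98, adjusted p = 0.0403). *Lamb3* (22.996 ± 4.25 against 2.22 ± 1.44 CPM), an anchoring laminin chain, was higher in the immune fraction. Of 11 pericyte and smooth muscle genes, *Pdgfrb* (-1.47 ± 0.35) and *Des* (-1.93 ± 0.49) were higher in the stromal libraries and *Notch3* (2.77 ± 0.51) and *Mcam* (2.41 ± 0.73, or 1.60 with an adjusted p of 0.0821 without immune control 3) in the immune libraries. Without immune control 4, 4 of the 11 were higher in the stromal libraries instead of 2.

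Antigen presentation through MHC class II was on the immune side, with 12 of 12 tested genes higher there (median log2 fold change 7.499). *H2-Ab1*, the beta chain of I-A, had 6002, 2259, 7863 and 7146 CPM in the immune and 21.5, 18.4, 15.2 and 41.9 CPM in the stromal libraries. *Cd74*, the invariant chain, had 6333, 2218, 7533 and 6800.4 CPM and 33.4, 23.4, 23.5 and 59.2 CPM. The master regulator *Ciita* (7.29 ± 0.52 on the log2 scale), the peptide-exchange genes *H2-DMa* (5.98 ± 0.52) and *H2-DMb1* (5.37 ± 0.48) and the co-stimulator *Cd86* (8.32 ± 0.70) followed. Summed over the list, the stromal libraries held 0.537% of the immune level. For the haematopoietic list that share was 0.940%, and which cells gave the stromal reads of either list was not tested.

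MHC class I genes were shared. *B2m*, the common light chain, had 3552 ± 1548 against 3626 ± 2153 CPM (adjusted p = 0.967) and the heavy chain *H2-K1* had 2494 ± 964 against 1473 ± 513 CPM (adjusted p = 0.125). The groups overlapped for both. Of 14 class I genes, 5 were higher in the immune fraction, among them the class I transactivator *Nlrc5* (3.42 ± 0.27), the immunoproteasome subunit *Psmb9* (2.13 ± 0.36) and the peptide transporter *Tap1* (1.16 ± 0.29), and 2 in the stromal fraction, the chaperones *Calr* (-1.87 ± 0.33) and *Pdia3* (-2.15 ± 0.40).

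Of 27 Fc receptor and C-type lectin genes, 23 were higher in the immune and 4 in the stromal libraries. *Clec4e*, the Mincle receptor for mycobacterial glycolipids, had 582, 283, 1404 and 346 CPM in the immune and 0, 0.160, 0.130 and 1.59 CPM in the stromal libraries. *Clec7a*, the beta-glucan receptor dectin-1, had 246 ± 163 CPM and 0.346 ± 0.263 CPM. The 4 that were higher in the stromal fraction were *Fcgrt* (152 ± 59.0 against 578 ± 99.0 CPM), the neonatal Fc receptor that recycles IgG, and the lectin-domain proteins *Clec3b* (27.9 ± 9.77 against 485 ± 74.9 CPM), *Clec11a* (5.09 ± 2.76 against 80.4 ± 41.7 CPM) and *Clec14a* (1.49 ± 1.62 against 9.66 ± 3.12 CPM), which are secreted or endothelial proteins. Of 23 innate sensors, 13 were higher in the immune and 2 in the stromal libraries. *Nlrp3* (142 ± 139.8 against 0.141 ± 0.0948 CPM), *Tlr2* (141 ± 72.6 against 13.7 ± 5.502 CPM) and *Tlr13* (16.2 ± 4.51 against 0.0551 ± 0.0637 CPM) were immune-higher, and *Myd88* (87.4 ± 15.4 against 311 ± 79.3 CPM), the adaptor of most Toll-like receptors, and *Irak3* (25.3 ± 9.33 against 113 ± 45.7 CPM), a brake on the same pathway, were stromal-higher.

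The phagocyte NADPH oxidase, which makes superoxide, had all 6 of its tested subunits higher in the immune fraction, with *Cybb* at 277 ± 115 against 0.288 ± 0.216 CPM. The stromal fraction had more of the related oxidases *Nox4* (4.05 ± 2.97 against 19.97 ± 14.5 CPM, adjusted p = 0.0101) and *Duox1* (1.19 ± 1.29 against 16.8 ± 9.75 CPM, adjusted p = 0.00141). Of 22 tested eicosanoid genes, 12 were higher in the immune libraries, including *Alox5ap* (194 ± 108 against 0.850 ± 0.213 CPM), which presents arachidonic acid to 5-lipoxygenase, the prostaglandin D synthase *Hpgds* (27.7 ± 5.49 against 0.926 ± 1.30 CPM) and *Ptgs2* (669 ± 438 against 129 ± 66.4 CPM), the inducible cyclooxygenase. The 5 that were higher in the stromal libraries were the synthases for prostaglandin E, *Ptges* (14.0 ± 7.46 against 161 ± 11.6 CPM), and prostacyclin, *Ptgis* (3.24 ± 1.31 against 50.3 ± 46.9 CPM), the receptors *Ptgfr* (4.65 ± 4.18 against 40.6 ± 15.3 CPM) and *Ptgir* (10.2 ± 4.64 against 23.2 ± 7.51 CPM; adjusted p = 0.0540, 0.0745 or 0.0607 without immune control 3, stromal control 1 or stromal control 2), and *Lta4h* (52.7 ± 10.8 against 129 ± 15.1 CPM), the hydrolase that makes leukotriene B4.

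Of 27 chemokines, 14 were higher in the immune and 6 in the stromal libraries, and of 18 receptors 14 and 2. Among the neutrophil attractants, *Cxcl2* had 2673, 1194, 8240.3 and 2529.8 CPM in the immune and 127, 201, 136 and 229 CPM in the stromal libraries, whereas *Cxcl1* had 362, 247, 513 and 417 CPM and 1566, 2003, 1767 and 4751 CPM. These 2 ligands of the same receptor, *Cxcr2* (68.6 ± 60.6 against 0.104 ± 0.162 CPM), thus differed in opposite directions (adjusted p = 1.95e-04 and 5.39e-04). *Ccl4* (9.95 ± 0.79 on the log2 scale, or 10.76 without stromal control 4), *Ccl3* (9.91 ± 0.89, or 10.60 without stromal control 4), *Ccl9* (7.79 ± 0.62) and *Ccl22* (8.10 ± 1.16, or 7.06 without immune control 5 and 11.26 without stromal control 4) were immune-higher. *Ccl7* (3765 ± 1303 against 7198 ± 1877 CPM, adjusted p = 0.0756) and *Ccl2* (2156 ± 827 against 2899 ± 689.8 CPM, adjusted p = 0.369), both ligands of *Ccr2*, were abundant in both fractions and not called.

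Among the stromal-higher chemokines, *Cxcl12*, which holds leukocytes in tissue, had 844, 882, 736 and 1130.3 CPM in the stromal and 98.6, 75.9, 32.6 and 49.7 CPM in the immune libraries. Its signalling receptor *Cxcr4* was immune-higher (94.9 ± 39.9 against 0.300 ± 0.293 CPM) and its scavenging receptor *Ackr3* stromal-higher (65.7 ± 30.8 against 746 ± 438 CPM). *Ccl11*, the eosinophil attractant (29.6 ± 28.4 against 654 ± 386 CPM), *Cxcl13* (7.84 ± 2.74 against 227 ± 235 CPM), which attracts B cells, and *Ccl19* (10.3 ± 12.99 against 48.4 ± 22.2 CPM), a ligand of *Ccr7*, were also stromal-higher. The adjusted p of *Ccl19* was 0.0619 to 0.0670 without immune control 4, immune control 6, stromal control 1 or stromal control 3. The other *Ccr7* ligand, *Ccl21a*, a lymphatic endothelial gene with near-identical copies, was immune-higher (261 ± 218 against 31.3 ± 12.3 CPM, adjusted p = 0.00223), as was *Ccr7* (57.6 ± 46.8 against 0.440 ± 0.469 CPM) of migrating dendritic cells.

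Of 26 tested cytokine genes, 12 were higher in the immune and 4 in the stromal libraries. *Il1b*, the inflammatory cytokine of myeloid cells, had 4418, 1454, 6598 and 1729.8 CPM in the immune and 3.48, 3.90, 3.33 and 17.4 CPM in the stromal libraries. Its signalling receptor *Il1r1* was stromal-higher (23.9 ± 14.3 against 89.0 ± 10.5 CPM, adjusted p = 0.00162), and its antagonist *Il1rn* immune-higher (737 ± 466 against 2.34 ± 1.68 CPM). *Osm* (310.4 ± 112 against 0.661 ± 0.509 CPM), *Tnf* (148 ± 120.4 against 1.22 ± 0.552 CPM), *Il10* (86.6 ± 70.5 against 0.154 ± 0.214 CPM) and *Il4* (55.0 ± 46.1 against 0.473 ± 0.136 CPM) were immune-higher. The receptor subunit of oncostatin M, *Osmr*, was not called (47.8 ± 17.8 against 72.5 ± 17.6 CPM, adjusted p = 0.126), but was stromal-higher without immune control 4 (log2 fold change -0.90, adjusted p = 0.0246).

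The 4 stromal-higher cytokines were *Csf1* (114 ± 28.3 against 476 ± 98.2 CPM), the survival factor of macrophages, *Il33* (11.9 ± 8.91 against 191 ± 215 CPM), an alarmin, *Il7* (22.5 ± 4.27 against 50.8 ± 14.2 CPM) and *Tnfsf13b* (6.601 ± 3.53 against 25.5 ± 20.4 CPM), survival factors of lymphocytes. For 3 of these a receptor was higher in the opposite fraction: *Csf1r* for *Csf1*, *Il7r* for *Il7* (53.5 ± 19.9 against 0.128 ± 0.220 CPM, adjusted p = 1.16e-05) and *Tnfrsf13b* for *Tnfsf13b* (16.6 ± 6.34 against 0.0564 ± 0.0758 CPM, adjusted p = 1.83e-05). *Il33* was uneven, at 74.3, 75.9, 99.9 and 512 CPM in stromal controls 1 to 4, and its log2 fold change moved from -4.01 to -2.83 without stromal control 4 (*Tnfsf13b* from -1.96 to -1.24). Its receptor *Il1rl1* was not called, with 49.95, 61.8, 83.6 and 59.8 CPM in the immune and 7.12, 35.8, 26.7 and 528 CPM in the stromal libraries, and stromal control 4 was the highest for both genes. Without it *Il1rl1* was immune-higher (log2 fold change 1.44, adjusted p = 0.0313). *Il6* (581 ± 204 against 989.9 ± 539 CPM, adjusted p = 0.159) was abundant in both fractions. Of 36 receptors, 19 were higher in the immune and 7 in the stromal libraries, the latter including *Il11ra1* (-2.96 ± 0.37), *Il15ra* (-2.22 ± 0.33), *Ltbr* (-1.41 ± 0.26), *Tnfrsf1a* (-1.20 ± 0.30) and *Il4ra* (-1.18 ± 0.31). The 2 TNF receptors thus went in opposite directions, *Tnfrsf1b* being immune-higher (2.26 ± 0.27, adjusted p = 8.11e-05).

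**Figure D4:**
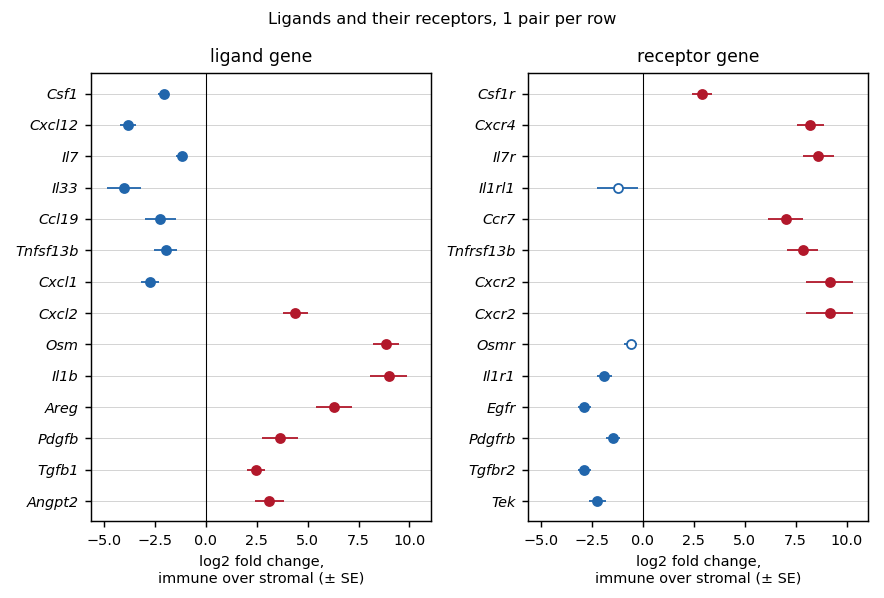
Log2 fold change (immune over stromal, edgeR) with SE bars for ligand genes (left column of points) and the receptors they are known to bind (right column), 1 row per pair. Filled points passed an adjusted p of 0.05. *Csf1*, *Cxcl12* and *Il7* lie on the stromal side with their receptors on the immune side, and *Il1b*, *Areg*, *Pdgfb* and *Tgfb1* lie on the immune side with *Il1r1*, *Egfr*, *Pdgfrb* and *Tgfbr2* on the stromal side.

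Of 30 tested growth factors, 13 were stromal-higher, 7 immune-higher and 10 not called, and without immune control 4 there were 20 stromal-higher and 8 immune-higher. *Fgf7*, the keratinocyte growth factor, had 91.2, 88.2, 91.2 and 203 CPM in the stromal and 16.2, 6.50, 3.23 and 5.41 CPM in the immune libraries. *Vegfd* (-3.92 ± 0.59, or -3.10 without stromal control 4), *Pdgfd* (-4.02 ± 0.90, or -6.54 without immune control 4), *Tgfb2* (-2.05 ± 0.35) and *Igf1* (-1.42 ± 0.36) were stromal-higher. Among the 7 that were immune-higher were *Areg* (180.2 ± 153 against 2.35 ± 2.62 CPM), which activates the EGF receptor, *Tgfb1* (52.1 ± 24.6 against 9.25 ± 3.90 CPM), *Pdgfb* (13.7 ± 5.497 against 1.09 ± 0.958 CPM), *Pdgfa* (21.7 ± 4.45 against 6.39 ± 3.79 CPM), *Nrg1* (26.0 ± 12.8 against 1.02 ± 0.385 CPM) and *Angpt2* (17.6 ± 15.3 against 2.02 ± 0.971 CPM). Receptors for some of these, *Egfr* (16.1 ± 3.18 against 118 ± 46.2 CPM, adjusted p = 4.31e-05), *Tgfbr2* (91.2 ± 31.9 against 669 ± 112 CPM, adjusted p = 4.06e-05), *Pdgfra* (29.0 ± 16.5 against 187 ± 54.3 CPM, adjusted p = 3.99e-04) and *Tek*, were stromal-higher. Not all growth factor receptors were. Of 25 tested, 11 were stromal-higher, 5 immune-higher, among them *Flt4* (above), and 9 not called. *Pdgfb* and *Angpt2* are also endothelial genes, and endothelial genes were immune-higher as a list, although *Tek* went the other way. Which cells gave the reads of *Pdgfb* and *Angpt2* was not tested.

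Structural matrix genes were mostly stromal-higher. Of 45 glycoproteins and proteoglycans, 37 were higher in the stromal and 3 in the immune libraries (median log2 fold change -2.77), and of 22 crosslinking and collagen-processing genes 19 and 0 (median -3.11). *Postn*, the matricellular protein periostin, had 669.6, 750.4, 564 and 1191 CPM in the stromal and 21.3, 23.6, 27.0 and 31.2 CPM in the immune libraries. *Pcolce*, the enhancer of procollagen cleavage, had 1186, 1993, 1532 and 1952 CPM and 84.3, 72.1, 30.2 and 76.5 CPM, and the collagen chaperone *Serpinh1* had 138 ± 61.8 against 2550.3 ± 928 CPM. The lysyl oxidases *Lox* (-2.86 ± 0.44) and *Loxl1* (-3.02 ± 0.34), the fibrillin *Fbn1* (-3.42 ± 0.36) and elastin, *Eln* (-2.62 ± 0.29), were stromal-higher. The 3 that were immune-higher were thrombospondin 1, *Thbs1* (1812 ± 918 against 582 ± 225 CPM, adjusted p = 0.0109), *Lama5* (4.55 ± 2.44 against 0.989 ± 0.700 CPM, adjusted p = 0.0432) and agrin, *Agrn* (21.6 ± 5.11 against 12.6 ± 1.92 CPM, adjusted p = 0.0369). The adjusted p of *Lama5* was 0.0530 to 0.102 without immune control 3, 4 or 6 or stromal control 2, 3 or 4, and that of *Agrn* 0.0682 to 0.123 without immune control 3 or 5 or stromal control 2, 3 or 4. *Thbs2* (-2.75 ± 0.51, or -3.42 without immune control 3), *Thbs3* (-3.49 ± 0.28) and *Thbs4* (-3.32 ± 0.43) went the other way.

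Collagen chains depended on 1 library. Of 30 tested, 16 were stromal-higher and 0 immune-higher with all 8 libraries (median log2 fold change -1.60), and 24 and 0 without immune control 4 (median -2.91). The abundant fibrillar and beaded-filament chains were called either way. *Col3a1* had 5327, 15360.1, 8995 and 6366 CPM in the stromal and 496, 356, 258 and 523 CPM in the immune libraries, and *Col6a1* had 538, 1023, 681 and 538 CPM and 26.0, 22.8, 14.8 and 28.1 CPM. Low chains such as *Col12a1* (14.5, 34.7, 2.70 and 10.2 CPM in the immune and 20.99, 33.2, 22.6 and 16.2 CPM in the stromal libraries) overlapped between the fractions, and immune control 4 was the highest of the immune libraries. *Col12a1* was called without it (log2 fold change -1.39, adjusted p = 0.0384).

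Of 26 proteases and inhibitors, 14 were stromal-higher and 8 immune-higher, and 5 were immune-higher without immune control 6 or without stromal control 3. The gelatinases parted: *Mmp2* had 1172, 1018, 996 and 1971 CPM in the stromal and 43.3, 38.5, 33.2 and 35.4 CPM in the immune libraries, and *Mmp9* had 0.155, 0, 0 and 0.624 CPM and 26.9, 14.6, 66.0 and 4.68 CPM. *Mmp14*, the membrane-bound activator of *Mmp2* (174 ± 87.4 against 964 ± 230.1 CPM), *Mmp3* (106 ± 101 against 899 ± 931 CPM), *Mmp23* (18.6 ± 5.17 against 406 ± 28.8 CPM) and the inhibitors *Timp2* (271 ± 78.8 against 2893 ± 701 CPM) and *Timp3* (29.9 ± 13.2 against 431 ± 149 CPM) were stromal-higher. *Mmp8* (20.5 ± 11.02 against 0.109 ± 0.102 CPM), *Mmp13* (14.8 ± 8.92 against 0.0357 ± 0.0415 CPM), *Mmp12* (23.9 ± 17.4 CPM, no stromal read) and *Adam8* (181 ± 117 against 1.27 ± 0.207 CPM) were immune-higher. The plasminogen activator *Plat* was stromal-higher, at 320.0, 370.2, 312 and 1393 CPM in the stromal libraries, where stromal control 4 was the highest, against 39.7, 40.6, 45.3 and 48.4 CPM in the immune libraries. Without stromal control 4 the log2 fold change moved from -3.78 to -2.96 for *Plat* and from -3.09 to -2.05 for *Mmp3*, which was at -4.02 without immune control 3.

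Of 28 lysosomal enzyme genes, 10 were higher in the immune and 8 in the stromal fraction, not far from the 26.6% and 22.8% over all genes. The median log2 fold change of the list was 0.10, against 0.08 over all genes tested, so the list as a whole leaned to neither side. *Ctss*, the cathepsin that trims the invariant chain, had 956, 467, 1508 and 1047 CPM in the immune and 2.40, 2.83, 1.11 and 9.08 CPM in the stromal libraries, and *Ctsc* had 453 ± 231 against 11.01 ± 2.14 CPM. *Ctsk*, the collagen-degrading cathepsin, had 2127, 889, 1148 and 2223 CPM in the stromal and 173, 79.9, 55.3 and 44.3 CPM in the immune libraries, and *Ctsl* (380.2 ± 151 against 1739.5 ± 913 CPM), *Ctsh* (209.5 ± 105.03 against 879 ± 373 CPM) and *Ctsf* (8.96 ± 1.74 against 124 ± 58.0 CPM) were stromal-higher as well. *Ctsb* (1555 ± 895 against 1833 ± 506 CPM, adjusted p = 0.658) was not called.

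Complement genes were called in both directions. Recognition by C1q was immune-higher, with *C1qb* at 247, 145, 1090.1 and 879 CPM in the immune and 4.801, 5.18, 2.61 and 11.8 CPM in the stromal libraries, and the C1 proteases were stromal-higher, with *C1ra* at 406, 326, 336 and 749 CPM in the stromal and 45.3, 26.3, 21.3 and 13.6 CPM in the immune libraries. The groups did not overlap for either gene. *C1s1* (-3.78 ± 0.37), the central component *C3* (99.2 ± 13.5 against 1104 ± 378 CPM), *C4b* (78.1 ± 64.6 against 372 ± 159.7 CPM) and the C1 inhibitor *Serping1* (177 ± 144 against 4490.2 ± 1549.5 CPM) were stromal-higher. The receptors for the released fragments, *C3ar1* (61.7 ± 38.8 against 0.706 ± 0.639 CPM) and *C5ar1* (228 ± 148 against 1.34 ± 1.11 CPM), and properdin, *Cfp* (266 ± 203 against 3.63 ± 0.621 CPM), were immune-higher. In all, 6 of 22 genes were higher in the immune and 10 in the stromal fraction. The first share was close to the 26.6% over all genes, and the second lay above the 22.8%.

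Of 17 leukocyte integrin and adhesion genes, 12 were higher in the immune and 4 in the stromal fraction. *Itgam* (169 ± 117 against 0.145 ± 0.174 CPM) and *Itgal* (53.1 ± 9.43 against 0.0706 ± 0.0665 CPM) were immune-higher, and the endothelial and stromal ligands of leukocyte integrins *Icam1* (242 ± 115 against 594 ± 159.7 CPM) and *Vcam1* (60.0 ± 19.5 against 113 ± 15.5 CPM) stromal-higher, with *Itga2b* (16.9 ± 8.00 against 59.1 ± 17.1 CPM) and *Itgb3* (29.5 ± 9.60 against 81.0 ± 24.98 CPM). Of 15 matrix integrins, 3 were called on each side, no larger a share than the 26.6% and 22.8% over all genes, and 1 was immune-higher without immune control 4, immune control 6 or stromal control 2. *Itgb5* (15.3 ± 5.47 against 289.7 ± 38.1 CPM) and the collagen receptor *Itga11* (4.48 ± 4.30 against 32.0 ± 14.1 CPM) were stromal-higher. *Itga1* (35.7, 55.3, 6.74 and 31.2 CPM in the immune and 10.8, 7.16, 8.15 and 3.80 CPM in the stromal libraries) was called immune-higher although the groups overlapped.

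Of 18 leukocyte transcription factors, 14 were higher in the immune and 0 in the stromal fraction. *Spi1*, which encodes PU.1, had 156, 88.3, 279.5 and 223 CPM in the immune and 0.542, 1.18, 0.717 and 1.70 CPM in the stromal libraries, and *Ikzf1*, the lymphoid factor Ikaros, had 91.4, 89.4, 109 and 114 CPM and 0.620, 0.160, 0 and 0.227 CPM. *Cebpb* (1747 ± 848 against 1034 ± 328 CPM, adjusted p = 0.130) was abundant in both. Of 21 stromal factors, 10 were stromal-higher and 1 was immune-higher. The homeobox gene *Prrx2* (-4.35 ± 0.39), *Osr2* (-4.25 ± 0.39) and *Tbx15* (-2.72 ± 0.32) led them, and the immune-higher factor was the endothelial *Erg* (3.88 ± 1.48 against 0.175 ± 0.181 CPM). *Zeb1* (40.7 ± 11.2 against 49.9 ± 14.99 CPM, adjusted p = 0.419) was not called.

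Wnt, BMP and hedgehog genes were stromal-higher in 19 of 31 and immune-higher in 1, the Wnt target *Axin2* (6.86 ± 4.27 against 2.34 ± 1.15 CPM, adjusted p = 0.0425). The adjusted p of *Axin2* was 0.0590 to 0.178 without immune control 3 or 4 or stromal control 2, 3 or 4. The secreted antagonists *Sfrp4* (31.5 ± 10.03 against 670.3 ± 318 CPM), *Sfrp1* (7.19 ± 1.91 against 65.6 ± 13.7 CPM), *Dkk3* (3.07 ± 1.48 against 37.6 ± 19.5 CPM) and *Wif1* (0.774 ± 0.671 against 18.1 ± 13.9 CPM), the receptors *Fzd2* (1.90 ± 0.920 against 28.3 ± 5.26 CPM) and *Fzd4* (7.83 ± 3.003 against 45.7 ± 11.5 CPM) and the hedgehog transducer *Smo* (3.50 ± 2.15 against 25.1 ± 6.15 CPM) were on the stromal side. Of 16 YAP and TEAD genes, which respond to tension on the cytoskeleton, 7 were stromal-higher. They included *Cyr61* (6675, 6414, 6347 and 7769.6 CPM in the stromal and 1312, 614, 271 and 549 CPM in the immune libraries) and the receptor tyrosine kinase *Axl* (44.2 ± 13.7 against 574 ± 88.6 CPM). *Ankrd1* (11.5 ± 13.5 against 2.01 ± 0.752 CPM, adjusted p = 0.0300) and *Lats2* (38.6 ± 5.69 against 19.9 ± 1.33 CPM, adjusted p = 0.00364) were immune-higher. The log2 fold change of *Ankrd1* was 2.50 ± 0.85 and fell to 1.26 without immune control 4 (adjusted p = 0.147), with an adjusted p of 0.0679 to 0.0746 without stromal control 1, 2 or 4.

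Force-gated channels were found in both fractions. Of 14 mechanosensitive channel genes, 6 were immune-higher and 2 stromal-higher, while 3 were immune-higher without stromal control 2 and 4 stromal-higher without immune control 4. *Piezo1*, a force-gated cation channel, had 37.8, 52.0, 34.8 and 54.8 CPM in the immune and 33.0, 19.7, 28.2 and 18.8 CPM in the stromal libraries (adjusted p = 0.0228). *Piezo2* had 13.2, 48.2, 10.5 and 8.04 CPM and 2.94, 1.92, 1.96 and 0.965 CPM (adjusted p = 0.00132), and *Trpv2* had 28.4, 40.4, 35.0 and 43.4 CPM and 4.18, 1.82, 1.89 and 1.70 CPM (adjusted p = 1.64e-05). *Pkd2* (17.5 ± 10.5 against 63.8 ± 4.94 CPM) and *Tmem63a* (23.5 ± 9.38 against 62.8 ± 10.6 CPM) were stromal-higher. The adjusted p of *Piezo1* was 0.0826 without immune control 6, 0.0768 without stromal control 2 and 0.0658 without stromal control 4. For *Piezo2*, immune control 4 held the highest value, and the log2 fold change was 3.35 with it and 2.39 without it. The cell types that hold these reads within a fraction were not measured.

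Immediate early genes, which are known to respond to tissue dissociation, were abundant in both fractions and 9 of 23 were stromal-higher, with 0 immune-higher and 13 without overlap in favour of the stromal libraries. *Fos* had 9743, 7267, 8979 and 15086 CPM in the stromal and 3965, 1676, 2407 and 2466 CPM in the immune libraries. *Egr1* (1168 ± 323 against 4089 ± 1211 CPM), *Atf3* (694 ± 231 against 2519.8 ± 760.0 CPM) and *Socs3* (229 ± 57.0 against 1290.2 ± 436 CPM) differed likewise. DESeq2 called 14 of the 23. Of 18 NF-kB feedback genes, 9 were immune-higher, among them the subunit *Rel* (472 ± 276 against 34.2 ± 11.5 CPM), *Traf1* (286 ± 159 against 1.32 ± 0.460 CPM) and *Cd83* (598 ± 374 against 4.70 ± 1.95 CPM), and 1 was stromal-higher, *Rela* (116 ± 22.4 against 242 ± 55.6 CPM). *Nfkbia* (3491 ± 1078 against 4695 ± 662 CPM, adjusted p = 0.345) was not called. Of 24 interferon-stimulated genes, 11 were immune-higher and 0 stromal-higher, led by *Oas3* (4.64 ± 0.53), *Oas2* (3.18 ± 0.49) and *Rsad2* (3.32 ± 0.58, or 4.01 without stromal control 4).

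Of 24 glycolytic genes, 10 were stromal-higher, including *Gapdh* (191 ± 40.8 against 509 ± 96.7 CPM) and *Aldoa* (261 ± 86.9 against 905 ± 122 CPM), and 6 immune-higher, namely the hexokinase *Hk3* (31.4 ± 28.3 against 0.172 ± 0.0956 CPM), the glucose transporters *Slc2a3* (71.9 ± 49.0 against 3.48 ± 1.60 CPM) and *Slc2a6* (39.8 ± 25.3 against 0.866 ± 0.619 CPM), the lactate exporter *Slc16a3* (138 ± 119 against 6.49 ± 3.07 CPM), *Pfkfb3* (68.8 ± 21.6 against 12.6 ± 5.10 CPM) and *Aldoc* (3.15 ± 1.52 against 0.337 ± 0.311 CPM). *Gapdh* is often used as a reference gene, and here it was stromal-higher with an adjusted p of 0.00144. All 11 tested mitochondrially encoded genes were immune-higher (median log2 fold change 2.49, 7 of 11 without overlap), for example *mt-Cytb* (4942, 622, 1993 and 4070.1 CPM in the immune and 792, 459.7, 639 and 401 CPM in the stromal libraries). With offsets for transcript length and GC content 5 of the 11 were called. Of 34 ribosomal protein genes, 6 were immune-higher and 1, *Rpl4*, stromal-higher, and 27 were not called, although reads of their processed pseudogenes could be counted with them.

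Proliferation genes were immune-higher in 6 of 24, no larger a share than the 26.6% over all genes, and stromal-higher in 1, *Ccnd3* (42.9 ± 32.2 against 122 ± 26.3 CPM). *Mki67*, a nuclear protein of cycling cells, had 13.4, 24.9, 52.8 and 94.9 CPM in the immune and 2.17, 5.45, 0.978 and 0.113 CPM in the stromal libraries, and *Top2a* (44.5 ± 32.2 against 3.04 ± 3.51 CPM, adjusted p = 0.00231) went with it. The count was unsteady: 3 of 24 were immune-higher without immune control 6, stromal control 1, stromal control 3 or stromal control 4, and 13 without stromal control 2.

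**Figure D5:**
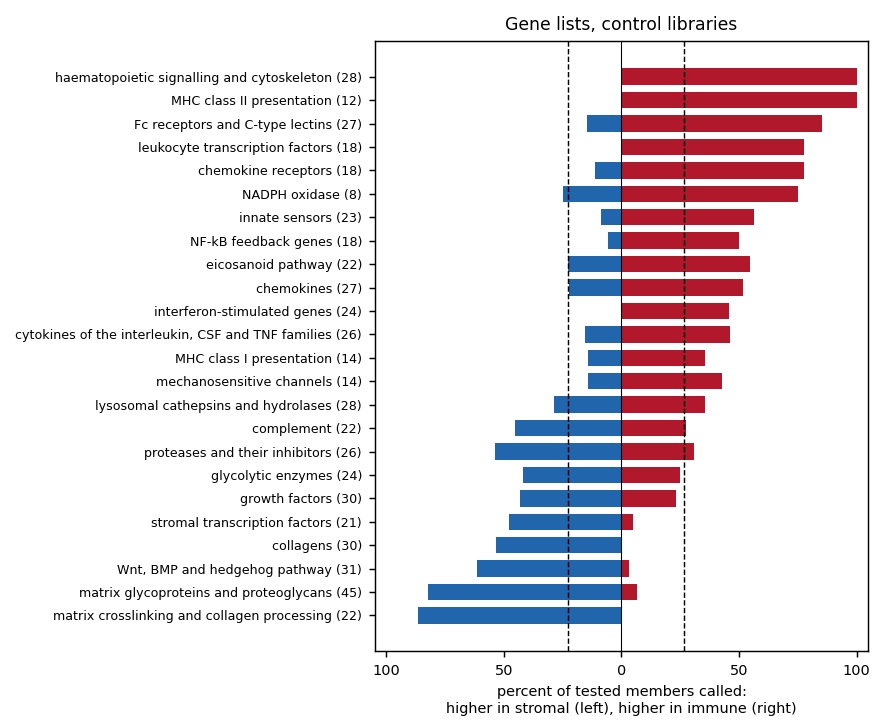
Number of tested members called higher in the immune (right, positive) and stromal (left, negative) control libraries, as percent of the tested members, for 24 gene lists with the number tested in brackets. Dashed lines mark the shares over all genes tested, 26.6% and 22.8%. Leukocyte, MHC class II and NADPH oxidase lists extend to the right and matrix lists to the left, while complement, proteases and cathepsins extend both ways.

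Much of the separation of the fractions, but not all of it, carried over to stretched skin, which shares no library with the controls. Of the 4027 genes higher in the immune controls, 2834 (70.4%) were also called higher in the immune fraction of stretched skin, where they made up 69.3% of the 4091 genes called, and 15 were called the opposite way. Of the 3457 higher in the stromal controls, 2302 (66.6%) were called the same way, 53.7% of the 4289 called there, and 7 the opposite way. As background, of all 17116 genes tested in stretched skin 4091 were called immune-higher and 4289 stromal-higher, or 49% in both directions together. *Ptprc* had a log2 fold change of 8.10 there (adjusted p = 5.38e-06), *Wnt2* -3.41 (adjusted p = 0.00135) and *Cdh5* 2.82 (adjusted p = 2.96e-04). In the controls the same genes were further apart, at 9.68, -6.73 and 5.07. The 5 red blood cell genes, all stromal-higher in the controls, were not called in stretched skin (0 of 5). Their median log2 fold change was -1.77 there and -3.52 in the controls, so the missing calls do not show that the difference was lost. Collagen chains were stromal-higher in 26 of 30. Other lists changed their balance. Of 14 mechanosensitive channel genes, 2 were immune-higher and 4 stromal-higher in stretched skin, against 6 and 2 in the controls. Of 14 basal keratinocyte genes the counts were 0 and 5, against 2 and 1. Of 24 glycolytic genes they were 7 and 5, against 6 and 10. Whether a list as a whole differed was not tested.

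Whether the contrast itself differed between stretched and control skin was tested with the interaction term over all 16 libraries. None of 18295 genes (0%) passed in edgeR's test, where the smallest adjusted p was 0.0573, while 4232 genes had an unadjusted p under 0.05 and DESeq2 called 1626. The count rested on single libraries, since 1495 genes passed without immune control 6, 114 without immune stretched 2 and 29 without immune control 4.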

How the data were processed

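Per the labels' protocols, CD45-positive and CD45-negative cells were sorted from skin, and libraries were made with a SMART-Seq mRNA kit and Nextera XT tagmentation. The submitters' processing notes name FastQC 0.11.9, STAR and mm10. The way reads were counted (tool, strand, reads with several matches) is not given in the sources used here. Whole-number read counts per Ensembl gene were deposited by the authors, in 1 table of 55487 genes and 16 libraries. Symbols, coordinates and transcript lengths came from GENCODE M21 on GRCm38, where 55394 IDs matched, and promoters from RefSeq on GRCm38.p6.

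Groups came from the titles and treatment labels. The 8 control libraries (2645421 to 20467010 counts) were fitted without covariates in edgeR 4.0.16 (R 4.3.3), with filterByExpr at a minimum count of 10 and a total of 15, TMM factors and quasi-likelihood F tests. A gene was called at a Benjamini-Hochberg adjusted p under 0.05 over all genes tested, and the SE is the log2 fold change divided by the square root of F. The interaction used all 16 libraries. Counts of whole groups set the counting intervals and the floor of 3 counts, which cover counting error only. The alternatives were RLE and upper-quartile factors, DESeq2 1.42.0, limma 3.58.1 voom, no filter and a stricter filter, glmTreat, thinning to the smallest total, a covariate for detected genes, length and GC offsets, all 16 libraries, a replicate block and each library left out.

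The rule for named genes took *Ptprc*, the 15 largest called changes in each direction without overlap and with a mean of at least 10 CPM (predicted genes, pseudogenes and receptor segments left out), and from each of 57 lists its most significant and most abundant members and those called against its direction. The groups compared, the lists and the rule were chosen with earlier results of these data known, and genes named beyond the rule were chosen after their values were seen. Some genes that the rule would name are not reported here. Tested on simulated counts for 14877 genes of the same comparison, the fit recovered 82% of 4-fold and 99% of 16-fold changes, and 6 of 187 calls were false. The simulation changed few genes, equally in both directions and none of low level. Its share of false calls therefore does not carry over to the data, where 49.4% of the genes were called. Within a group, any 2 libraries differed by 25.1 to 119.5 times the sampling noise (chi-square per degree of freedom), so none was counted as a duplicate.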

Additional observations from a re-analysis of the deposited data

Results flagged for a closer look

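Within each group of 4 control libraries, 1 library lay far from the other 3 in 73 of 670 groups of values checked (10.9%), by Dixon's test at its 95% critical value. Chance alone gives about 1 in 20 for independent, normally distributed values. The CPM were not log-transformed and the values checked are not independent, so the 10.9% cannot be read as an excess. Stromal control 4 held 35 of these, each time as the highest stromal library. The values below are CPM in the library named.

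Genes with the higher mean in the stromal libraries that stood far higher in stromal control 4 than in the other 3 stromal libraries were *Cxcl1* (4751), *Cxcl13* (577), *Fgf18* (63.1), *Fgf7* (203), *Il1rl1* (528), *Il33* (512), *Islr* (584), *Mmp3* (2293), *Nox4* (41.6), *Osr1* (275), *Pdgfd* (74.9), *Pdgfra* (268), *Plat* (1393), *Ptgis* (119.7), *Scn7a* (95.8), *Sfrp2* (395), *Tnfrsf1a* (341), *Tnfsf13b* (55.9), *Tubb4a* (59.9) and *Vegfd* (233). Genes with the higher mean in the immune libraries did so too, at lower levels: *C5ar1* (3.01), *Ccl22* (1.08), *Ccl4* (7.55), *Clec4e* (1.59), *Csf3r* (0.794), *Il1b* (17.4), *Lyz1* (8.57), *Ncr1* (0.340), *Retnlg* (0.284), *S100a9* (3.80), *Slfn4* (2.27) and *Syk* (17.3). The summed levels of the adipocyte list (874), of the eicosanoid list (789.6) and of the list of proteases and their inhibitors (18037) were also highest there.

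Immune control 3 stood above the rest of its group for *Ccl11* (71.9), *Cd207* (115), *Egr1* (1649.8) and *Mmrn1* (182). The same library was apart for the summed level of the list suprabasal keratinocyte (1270.2 CPM). Immune control 4 stood above the rest of its group for *Pdgfd* (9.48), *Piezo2* (48.2), *Scn7a* (28.4), *Thbs4* (11.9) and *Ttn* (109). Immune control 5 stood above the rest of its group for *Adam8* (354), *Fcgr4* (116), *Hk3* (73.9), *Lilra6* (50.9), *Mmp13* (28.0), *Nlrp3* (351) and *Slc2a6* (77.4) and below it for *Des* (3.23). The same library was apart for the summed level of the list matrix integrins (454 CPM). Immune control 6 stood above the rest of its group for *Ccnd3* (90.8), *Gzma* (562), *Icam1* (414), *Il4* (123), *Ncr1* (52.6), *Spon2* (25.4) and *Tpsb2* (2014). The same library was apart for the summed level of the list NK cell and cytotoxic lymphocyte (2325 CPM). Stromal control 1 stood above the rest of its group for *Areg* (6.27), *Gata2* (1.78), *Hpgds* (2.87), *Lats2* (21.8) and *Trpv2* (4.18) and below it for *Ptges* (144) and *Spon2* (387). Stromal control 2 stood above the rest of its group for *Igkc* (0.374) and below it for *Adam8* (0.962). Stromal control 3 stood above the rest of its group for *Ankrd1* (3.13) and *Il7r* (0.457).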

How the results depend on the processing

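Against 4027 immune-higher and 3457 stromal-higher genes, the counts lay within 1.5 times under every alternative but 2: a fold minimum of 2 (glmTreat) left 2376 and 1594, and the title number as a replicate block in the 8 libraries left 1962 and 1679, where only numbers 3 and 4 occur in both fractions. With the block in all 16 libraries the counts were 3620 and 3583. No label says that a number marks an animal, so the numbers were not taken as pairs. The same-numbered deviations had correlations of -0.05 and -0.13, within the -0.17 to 0.24 of libraries with different numbers. So few pairs cannot show or exclude a pairing. Leaving out 1 library gave 3502 to 4389 and 2864 to 4322. The remaining alternatives gave 3005 (stricter filter) to 5384 (all 16 libraries) and 2761 (thinned) to 4420. The interaction, 0 genes in edgeR, gave 1626 in DESeq2, 3924 with no filter, 2 with the replicate block and 0 to 1495 with 1 library left out; the cause was not tested. Of 4 genes that were not called, the sign changed. *B2m* was at 0.0033 (RLE and DESeq2), 0.0058 (upper quartile), 0.50 (voom), 0.14 (stricter filter), 0.11 (thinned) and -0.28 to 0.43 with 1 library left out. *Col12a1* was at 0.24 and *Krt14* at 1.98 (adjusted p = 0.0403, so called) under the 8-library block. *Krt14* ran from -2.32 to 0.48 and *Il1rl1* from -1.64 to 1.44 with 1 library left out, and *Il1rl1* was at 1.09 in voom. Of 269 called genes named, 219 were called the same way under each of 21 alternatives that tested them, 50 lost the call under at least 1 and 0 reversed. Counts of list members moved by over 1.5 times in 306 of 2394 cases. The median over all genes shifted by -0.23 with length and GC offsets, 1.44 without a filter, -0.14 without immune control 4 and -0.10 to -0.11 with voom, the covariate or the stricter filter. Depth limits low genes most in the immune libraries, the deepest of which held 6662268 counts.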
